A study of Mus musculus with 11 samples.

Results

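The chemokines of mouse hepatic mesenchyme were described for 10 genes, Cxcl12, Ccl19, Cxcl13, Ccl2, Ccl7, Ccl11, Cxcl1, Cxcl5, Cxcl10 and Cxcl14, chosen by symbol from the 27933 symbols of the 10X gene table. All 10 were found, and each was followed across mesenchymal types and conditions in 5 droplet libraries (10X, 3′ end counting of unique molecular identifiers, UMIs) and in wells of 6 Smart-seq2 plates (SS2, reads over whole transcripts). All cells came from male mice aged 10 to 16 weeks that carried the Pdgfrb-BAC-eGFP transgene, in which the Pdgfrb promoter drives GFP, with C57BL/6 as the background strain. Viable GFP-positive cells lacking staining for CD45 (leucocytes) and CD102 (endothelium) were sorted. Uninjured livers were compared with carbon tetrachloride (CCl4) injury, a hepatotoxin that damages the centre of the lobule, given either as 1 injection examined 72 h later or for 6 weeks, and with bile duct ligation (BDL) for 14 days. The 72 h mice were fasted overnight before injection. The 6 week livers were taken sooner after the last injection, so duration and time since dosing cannot be told apart. Digestion protocol 1 used ex vivo pronase and collagenase B after a saline flush, and protocol 2 used pronase and collagenase D perfused in vivo, followed by a density gradient to collect hepatic stellate cells (HSCs). The 10X libraries were uninjured protocol 1, CCl4 6 weeks protocol 1, uninjured protocol 2, CCl4 72 h protocol 2 and CCl4 6 weeks protocol 2, each 1 library of cells pooled from 3 mice. The reporter marks any cell with an active Pdgfrb promoter, so HSCs were sorted along with vascular smooth muscle cells (VSMCs) and fibroblasts (FBs).

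Chemokines are small secreted proteins that guide leucocytes through G protein-coupled receptors, and they are held on heparan sulphate so that local production forms a gradient. Homeostatic members are made without injury and place resident or lymphoid cells, whereas inflammatory members are switched on by NF-kB, interferon or stress signals and draw in monocytes, neutrophils, eosinophils or activated T cells. HSCs are the vitamin A storing pericytes of the sinusoid, portal FBs lie in the connective tissue around the portal vein and bile duct, and both are known sources of chemokines in injured liver.

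The libraries held 5454 to 7310 cells after filtering, with medians of 4300 to 11344 UMIs per cell. Clusters built without the 10 chemokines were named from marker genes. The protocol 1 libraries gave 4070 and 2637 FB-like cells and 1662 and 2997 VSMC-like cells (uninjured and 6 weeks), and the protocol 2 libraries gave 6850, 7294 and 5428 HSC-like cells (uninjured, 72 h and 6 weeks). Different clusters held most HSC-like cells of each condition. Defining HSC markers summed to 27250 CPM (counts-per-million) in uninjured, 5815 at 72 h and 14980 at 6 weeks, and Reln, Vipr1 and Colec11 were among those lower at 72 h. Markers of Kupffer cells and neutrophils, which also make chemokines, summed to at most 2.43 and 1.477 CPM in any type of any library. Pairs of libraries shared 33 to 74 cell barcodes. The protocol 1 libraries held 5 and 14 HSC-like cells, and protocol 2 held 15 FB-like cells and 1 VSMC-like cell at 72 h and 26 FB-like cells at 6 weeks, too few to compare, so type and digestion cannot be told apart, and no test was made between types. With 1 library per condition there was also no test between 10X conditions. CPM values are summed UMIs of a gene scaled to the summed UMIs of the type with an exact 95% Poisson interval, shares of cells are percentages, and intervals cover counting error only. A chemokine was called apart between conditions when it differed at least 2-fold and its intervals did not overlap.

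Cxcl12, the homeostatic ligand of CXCR4 that retains haematopoietic and lymphoid cells, was the highest of the 10 in all 7 groups, and 3′ UMI counts do not scale with transcript length. Its level was 5621 CPM (interval 5599 to 5643) in uninjured HSC-like cells, 2810 CPM (2799 to 2821) at 72 h and 5713 CPM (5692 to 5734) at 6 weeks. Thus it stood 2.00-fold lower at 72 h than in uninjured cells, whereas at 6 weeks the fold was 1.02. All HSC-like cells of the 3 libraries had a UMI. FB-like cells had 1062 CPM uninjured and 1043 CPM at 6 weeks, and VSMC-like cells had 244.2 and 193.3 CPM. The 250 bases before its start, chr6:117168285-117168534 (GRCm38.p6, plus strand, RefSeq), are shown for the most abundant member, beside Cxcl1 and Cxcl10 (chr5:90890995-90891244, plus strand, and chr5:92348890-92349139, minus strand), inflammatory members with matches to the motifs below. Of the 10 genes, 6 were matched to the promoter table by symbol. Ccl2, Ccl7, Ccl11 and Cxcl5 are named only. Capitals mark matches on either strand to GGGNNTTNCC (NF-kB), GAAANNGAAA (interferon response element) and TGANTCA (AP-1), which 4.11%, 2.98% and 6.75% of 32851 mouse promoters of the same length hold.
Cxcl12: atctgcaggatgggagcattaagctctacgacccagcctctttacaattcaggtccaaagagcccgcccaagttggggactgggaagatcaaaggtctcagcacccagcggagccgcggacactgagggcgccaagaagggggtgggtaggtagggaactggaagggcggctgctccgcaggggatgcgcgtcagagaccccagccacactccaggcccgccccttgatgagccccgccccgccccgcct
Cxcl1: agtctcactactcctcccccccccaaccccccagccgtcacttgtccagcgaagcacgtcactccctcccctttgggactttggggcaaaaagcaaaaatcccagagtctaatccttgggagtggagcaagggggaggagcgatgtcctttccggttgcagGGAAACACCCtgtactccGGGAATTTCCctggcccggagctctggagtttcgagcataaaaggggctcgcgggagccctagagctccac
Cxcl10: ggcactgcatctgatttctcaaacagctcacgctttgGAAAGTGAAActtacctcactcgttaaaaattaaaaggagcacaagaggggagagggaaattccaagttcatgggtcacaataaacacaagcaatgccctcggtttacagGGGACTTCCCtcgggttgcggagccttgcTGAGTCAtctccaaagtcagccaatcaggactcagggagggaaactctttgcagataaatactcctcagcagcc
Cxcl1 held 2 NF-kB matches, 71 to 62 and 89 to 80 bases before the start. Cxcl10 held the interferon element at 213 to 204, NF-kB at 103 to 94 and AP-1 at 74 to 68. Cxcl12 held none of the 3 motifs. Matches were also present in homeostatic members, since Ccl19 held NF-kB at 250 to 241 and the interferon element at 208 to 199, and Cxcl14 held the interferon element at 172 to 163. These are letters in a window, not measured binding sites.

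Ccl19, a CCR7 ligand that gathers dendritic cells and naive T cells, was made by both HSC-like and FB-like cells. It stood at 97.7 CPM (94.9 to 100.6) in uninjured HSC-like cells, 69.5 (67.8 to 71.3) at 72 h and 195.5 (191.7 to 199.3) at 6 weeks, which was 2.00-fold higher than uninjured and 2.81-fold higher than 72 h. The share of HSC-like cells with a Ccl19 UMI was 41.5%, 45.8% and 69.2%, and after thinning every cell to 2000 UMIs it was 16.2%, 12.3% and 29.2%, so the 6 week library was highest at equal depth too. FB-like cells held 223.7 CPM uninjured and 259.1 CPM at 6 weeks, and VSMC-like cells 51.5 and 52.6 CPM. The mouse genome holds near-identical Ccl19 copies, which makes these counts uncertain.

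Cxcl13, the CXCR5 ligand that organises B cell follicles, was near 0 in HSC-like cells, with 8, 26 and 11 UMIs in the 3 libraries. FB-like cells had 90.8 CPM (86.7 to 95.1) uninjured and 63.6 CPM (59.9 to 67.5) at 6 weeks. Only 3.46% and 3.64% of FB-like cells held a UMI, and the top 1% of cells held 89.9% and 91.0% of the UMIs. Thus Cxcl13 came from a small number of cells with many molecules each. In VSMC-like cells it stood at 2.62 CPM uninjured and 10.6 CPM at 6 weeks, but 114 of the 149 UMIs at 6 weeks came from 1 cell.

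Ccl2 and Ccl7 are CCR2 ligands that draw monocytes from blood. Ccl2 was the second most abundant of the 10 in uninjured HSC-like cells, with 1334 CPM (1323 to 1344) and a UMI in 73.1% of cells. It stood at 318.4 CPM (314.7 to 322.2) at 72 h, 4.19-fold lower, and at 412.6 CPM (407.1 to 418.2) at 6 weeks, 3.23-fold lower. Both injured libraries were therefore below the uninjured one, and the share with a UMI in cells thinned to 2000 UMIs went the same way, from 51.7% to 26.5% and 28.9%. In FB-like cells Ccl2 was 83.4 CPM (79.5 to 87.5) uninjured and 25.8 CPM (23.5 to 28.4) at 6 weeks, 3.23-fold lower. Only 3.49% and 3.75% of FB-like cells held a Ccl2 UMI, and the top 1% of cells held 92.9% and 78.9% of the UMIs. At 2000 UMIs per cell the shares were 2.22% and 1.65%. VSMC-like cells had 5.41 and 4.61 CPM.

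Ccl7 followed a different course in HSC-like cells. It was 149.6 CPM (146.1 to 153.2) uninjured, 138.4 (135.9 to 140.9) at 72 h and 67.5 (65.3 to 69.8) at 6 weeks, so that only the 6 week library stood apart, 2.22-fold below uninjured and 2.05-fold below 72 h. In FB-like cells Ccl7 was 81.04 CPM uninjured and 40.0 CPM at 6 weeks, 2.03-fold lower. The share of FB-like cells with a Ccl7 UMI was not clearly lower, at 6.93% uninjured and 7.74% at 6 weeks. With cells thinned to equal depth it was 4.175% and 4.006%. The 40 and 26 FB-like cells with the most Ccl7 UMIs held 73.7% and 58.9% of them, so this fold rested largely on few cells. Ccl2, Ccl7 and Ccl11 are neighbours on chromosome 11, between positions 82035571 and 82062955 of GRCm38, all on the plus strand, yet their levels differed by type. Ccl11 (eotaxin-1, a CCR3 ligand for eosinophils) was a gene of FB-like cells, with 253.3 CPM (246.4 to 260.3) uninjured and 301.9 CPM (293.7 to 310.3) at 6 weeks. It was found in 25.4% and 28.6% of FB-like cells and stood at 2.11 to 4.07 CPM in the 3 HSC-like groups and at 27.9 and 31.5 CPM in VSMC-like cells.

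**Figure D1:**
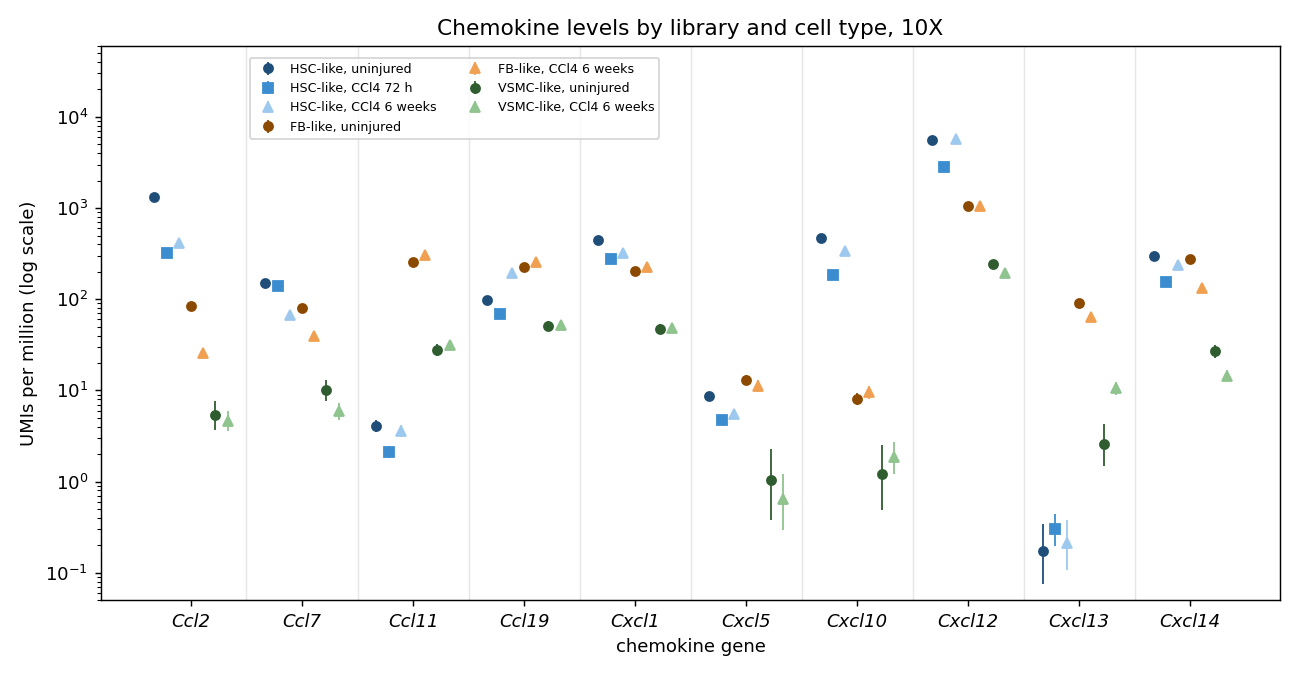
Level of each chemokine (CPM, log axis) in the 7 groups of 10X cells by type and condition, with exact 95% Poisson intervals as error bars. Cxcl12 is highest in every HSC-like group (2810 to 5713 CPM), Ccl2 and Cxcl10 are lower in both injured HSC-like libraries than in uninjured, and Ccl11 and Cxcl13 stand high in FB-like cells.

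Cxcl1 and Cxcl5 are ELR-motif ligands of CXCR2 that recruit neutrophils. Cxcl1 was broad, with 442.3 CPM (436.2 to 448.4) in uninjured HSC-like cells, 278.0 (274.5 to 281.5) at 72 h and 321.6 (316.8 to 326.6) at 6 weeks. These were 1.59-fold and 1.38-fold lower than uninjured and did not reach 2-fold. FB-like cells had 202.5 and 224.9 CPM and VSMC-like cells 46.9 and 48.5 CPM. Cxcl5 stayed low in all 7 groups of the 10X data, at 4.68 to 8.67 CPM in HSC-like cells, 13.2 and 11.2 CPM in FB-like cells and 1.05 and 0.639 CPM in VSMC-like cells.

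Cxcl10 is an interferon-induced CXCR3 ligand for activated T cells. In HSC-like cells it was 467.3 CPM (461.1 to 473.6) uninjured, 182.4 (179.5 to 185.2) at 72 h and 341.9 (336.9 to 347.0) at 6 weeks. It was 2.56-fold lower at 72 h, whereas at 6 weeks it was 1.37-fold lower. FB-like cells had 8.11 and 9.57 CPM. Cxcl14, a homeostatic chemokine of epithelia and stroma, was shared by HSC-like and FB-like cells, with 298.8, 154.7 and 237.0 CPM in the 3 HSC-like libraries and 274.0 CPM (266.9 to 281.4) and 132.8 CPM (127.4 to 138.4) in uninjured and 6 week FB-like cells. The fold was 2.06 lower in FB-like cells at 6 weeks and 1.93 lower in HSC-like cells at 72 h.

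Counted over the 10 genes, 3 were at least 2-fold lower at 72 h than uninjured in HSC-like cells (Ccl2, Cxcl10 and Cxcl12) and 0 were higher, where 9.73% and 6.57% of 6230 genes with at least 20 CPM were lower and higher. At 6 weeks 2 were lower (Ccl2 and Ccl7; background 1.56%) and 1 was higher (Ccl19; 2.75%). At 72 h against 6 weeks, 2 were lower (Ccl19 and Cxcl12; 4.95%) and 1 was higher (Ccl7; 3.87%). In FB-like cells at 6 weeks 3 were lower (Ccl2, Ccl7 and Cxcl14; 0.383%) and 0 were higher (1.32%). Of these, Ccl2 and Ccl7 had most of their UMIs in few cells, as given above. In VSMC-like cells 0 were lower (0.356%) and Cxcl13 alone was higher (2.25%), through the 1 cell given above, with a log2 fold of -0.21 once called doublets were left out. The median log2 fold of the 10 was -0.92, -0.39 and -0.49 in the 3 HSC-like comparisons, -0.13 for FB-like cells and -0.10 for VSMC-like cells, beside -0.21, -0.22, 0.04, -0.03 and 0.04 over all those genes. The comparisons of HSC-like cells share libraries. The 10 were counted without the floor of 20 CPM set for all genes. Members under that floor throughout were Ccl11, Cxcl5 and Cxcl13 in HSC-like cells and Cxcl5 and Cxcl10 in FB-like cells. In VSMC-like cells they were Ccl2, Ccl7, Cxcl5, Cxcl10 and Cxcl13. Ccl2 at 72 h and at 6 weeks, and Cxcl10 at 72 h, stood apart under all 9 alternatives of processing, with folds of 3.73 to 4.26, 2.85 to 3.25 and 2.28 to 2.57. Cxcl12 at 72 h and Ccl19 at 6 weeks lay at the 2-fold border and stood apart under 3 and 2 of the 9, with folds of 1.79 to 2.00 and 1.94 to 2.28. Ccl7 at 6 weeks stood apart under 7, and in FB-like cells Ccl2 did so under 9, Cxcl14 under 7 and Ccl7 under 5. Among the 9, 1 took whole libraries without types, which pools FB-like with VSMC-like cells. FB-like cells were 70.9% of the uninjured and 46.7% of the 6 week protocol 1 library.

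**Figure D2:**
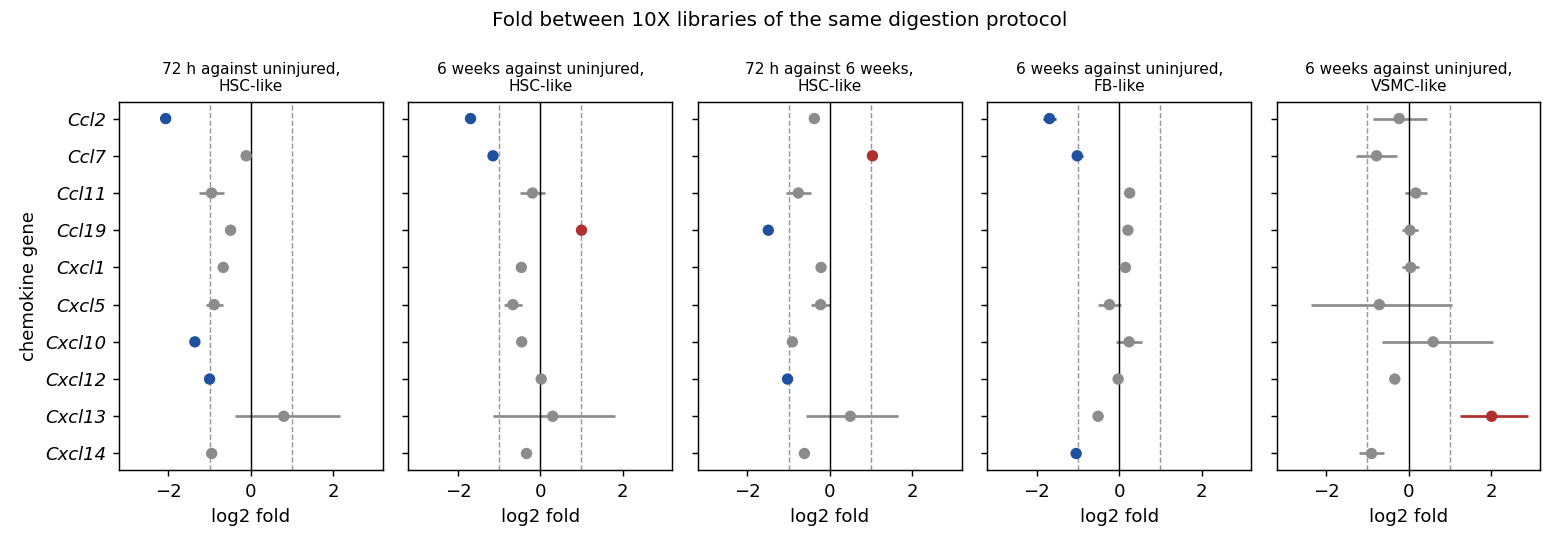
Log2 fold of each chemokine in 5 comparisons of 10X cells, with dashed lines at 2-fold, blue for lower and red for higher beyond it with intervals apart. In HSC-like cells Ccl2 sits at -2.07 (72 h) and -1.69 (6 weeks) and Ccl19 at 1.00 (6 weeks), and in FB-like cells Ccl2, Ccl7 and Cxcl14 lie below the lower line.

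Pathway genes were read beside these values. Of 16 NF-kB response genes, 13 reached 20 CPM at 72 h or uninjured, and 5 were at least 2-fold lower at 72 h (Nfkbia, Tnfaip3, Birc3, Icam1 and Irf1; 9.73% of all genes were lower) and 0 higher, with a median log2 fold of -0.70. At 6 weeks 1 of 14 was lower (Tnfaip3; 1.56%) and 0 were higher, and at 72 h against 6 weeks 3 of 12 were lower (Birc3, Icam1 and Irf1; 4.95%). Of 13 interferon response genes, 2 were lower at 72 h (Igtp and Iigp1; 9.73%) and 3 were higher at 6 weeks (Irf7, Rsad2 and Ifi44; 2.75%). At 72 h against 6 weeks 9 were lower (among them Ifit1, Ifit3, Irf7, Oas1a and Usp18; 4.95%). Of 9 heat shock genes 7 were lower at 72 h (Hspa1a, Hspa1b, Dnajb1, Hsph1, Hspd1, Hsp90aa1 and Dnaja1), with a median log2 fold of -2.11. Of 10 immediate early genes 5 were lower (Fosb, Junb, Ier2, Ier3 and Dusp1), with a median of -1.02, again beside 9.73% of all genes. At 6 weeks against uninjured 0 of 9 heat shock and 0 of 10 immediate early genes were lower (1.56%). Their median log2 folds were 0.04 and -0.26. At 72 h against 6 weeks 8 of the heat shock genes (those 7 and Hspb1) and 3 of the immediate early genes (Fosb, Atf3 and Dusp1) were lower. In FB-like cells at 6 weeks Hspa1a and Hspa1b were lower (0.383%). The part of these genes in the 72 h, 6 week and FB-like values was not tested.

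Few receptor genes reached 20 CPM in the same cells. Of 22 chemokine receptor genes, those reaching 20 CPM were the atypical receptors Ackr3, Ackr4 and Ackr1, which bind chemokines without G protein signalling. Ackr3, which binds CXCL12, stood at 300.8 and 185.2 CPM in uninjured and 6 week FB-like cells, but at 1.13 to 2.96 CPM in HSC-like cells, where Cxcl12 was highest. Ackr4, which binds CCL19, stood at 114.7 and 135.8 CPM in FB-like cells. Ackr1 was 32.8, 11.6 and 22.6 CPM in HSC-like cells, lower at 72 h. Of 28 other chemokine ligands in the files, Cxcl16 alone reached 50 CPM, with 107.4, 130.9 and 99.7 CPM in HSC-like cells.

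Within the HSC-like cells, portal and central cells of the lobule were told apart by a score over 50 portal and 29 central genes of the study, a list drawn from these uninjured cells. Ccl2 and Cxcl14 are themselves on its portal side and were left out of the score, and their uninjured ratio is not independent of that choice. Ccl2 was 1886 CPM in portal and 893.0 CPM in central cells uninjured (ratio 2.11), 386.9 and 300.7 CPM at 72 h (1.29) and 770.1 and 257.4 CPM at 6 weeks (2.99, interval 2.91 to 3.07). The portal side was higher in all 3 libraries, with the smallest ratio at 72 h. Cxcl12 lay the other way in all 3, with 5145 and 6001, 2447 and 2903, and 4692 and 6156 CPM in portal and central cells.

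Cxcl1 changed side. It was 510.8 CPM in portal and 387.6 CPM in central cells uninjured, but 140.9 and 313.4 CPM at 72 h, where the central level was 2.23-fold higher, and 290.4 and 335.2 CPM at 6 weeks. Ccl7 did likewise, with 155.7 and 144.7 CPM uninjured, 85.2 and 152.1 CPM at 72 h, and 56.8 and 72.2 CPM at 6 weeks, although its uninjured ratio was only 1.08. Cxcl5, at far lower levels, was 12.7 and 5.42 CPM uninjured (ratio 2.35), 3.55 and 4.97 CPM at 72 h (0.714) and 1.91 and 7.01 CPM at 6 weeks (0.273, interval 0.18 to 0.40). Ccl19, Cxcl10 and Cxcl14 were higher in portal cells of all 3 libraries, by 1.04-fold (Cxcl10 uninjured) to 1.98-fold (Ccl19 at 72 h). Ccl11 was too, at only 1.5 to 5.9 CPM, with ratios of 2.28 uninjured, 3.18 at 72 h and 1.87 at 6 weeks. The central cells at 72 h were deeper, with medians of 12016.5 against 9855 UMIs, and 496 cells lay near the border of the score. The score was split anew in each library. It gave 3004 portal and 3846 central cells uninjured, 1706 and 5588 at 72 h, and 1688 and 3740 at 6 weeks. The portal and central sides may thus cover different parts of the lobule in each library. These ratios are descriptions without a test.

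**Figure D3:**
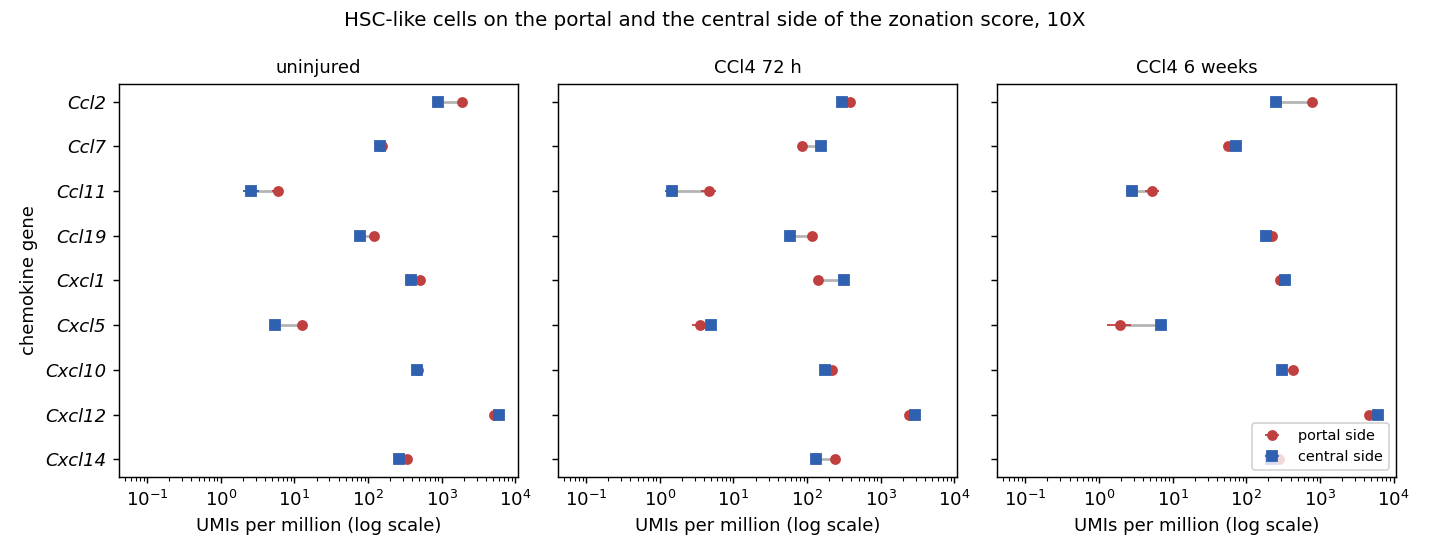
Level (CPM, log axis) of 9 chemokines in portal and central HSC-like cells of the uninjured, 72 h and 6 week libraries, with exact 95% Poisson intervals. Ccl2 is higher in portal cells in each library and Cxcl12 in central cells. Cxcl1 is higher in portal cells uninjured and in central cells at 72 h (313.4 against 140.9 CPM), with the sides split anew in each library.

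FB-like cells fell mainly into 2 clusters, one led by Sfrp1, Fmo2, Penk and Mmp3 and the other by Pi16, Mfap5 and Angptl1. The second held 2349 of 4070 FB-like cells uninjured but 941 of 2637 at 6 weeks. Cxcl12 was 2242 CPM in the first and 293 CPM in the second uninjured, and 1519 and 235.1 CPM at 6 weeks. Ccl19 was likewise higher in the first, with 401.9 against 107.6 CPM uninjured and 347.3 against 109.9 CPM at 6 weeks. Cxcl12 thus stood lower within each cluster at 6 weeks, although over all FB-like cells it was 1062 and 1043 CPM. Within the first cluster Ccl19 was lower at 6 weeks and within the second about level, although over all FB-like cells it was 223.7 and 259.1 CPM. Ccl2 and Ccl7 leaned to the Pi16 cluster, with 106 against 48.8 CPM and 105.4 against 43.6 CPM uninjured. At 6 weeks Ccl2 was 37.5 and 19.0 CPM and Ccl7 47.5 and 35.6 CPM in the same order, so both stood lower within each cluster as well. Cxcl14 did so in uninjured cells (359.7 against 142.6 CPM) but not at 6 weeks (119 against 141.1 CPM), so its 6 week level was lower in the Pi16 cluster and about level in the other. Ccl11 was alike in both, with 244.3 and 259.1 CPM uninjured. Among VSMC-like cells, a cluster of 149 and 213 cells led by Tnnt2, Actg2 and Npnt stood apart from the others, with Cxcl12 at 645 and 832.9 CPM and Ccl19 at 231.2 and 313 CPM, against 135.8 and 101.2 CPM and 5.68 and 9.82 CPM in the cluster led by Pln and Myh11.

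Inflammatory members tended to be found in the same HSC-like cells. After thinning to 2000 UMIs, Spearman correlations over 6736 uninjured HSC-like cells were 0.316 for Ccl2 with Cxcl1, 0.289 for Ccl2 with Cxcl10 and 0.257 for Ccl2 with Ccl7, but -0.135 for Ccl2 with Cxcl12. A Cxcl1 UMI was present in 41.5% of cells with Ccl2 and in 21.8% of cells without it. At 72 h and 6 weeks the Ccl2 and Cxcl1 value was 0.150 and 0.145. In 3880 uninjured FB-like cells Ccl2 went with Ccl7 (0.266) and Ccl19 with Cxcl12 (0.228). Of 91 cells with Cxcl13, 51.6% also held Ccl11, against 19.5% of all these FB-like cells (Spearman 0.125). Cells of 1 library share their source, so these are descriptions.

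Likeness of pattern was read over 27 groups of at least 50 cells (cluster by library) and 5164 genes, as Pearson's r of log2(CPM + 10). Cxcl10 was closest to Ifih1 (r = 0.983), Ddx58 (0.974) and Gbp3 (0.972), and Ccl2 to Ifih1 (0.957), Znrf1 (0.955) and Cxcl10 (0.953). Cxcl12 was closest to Irf8 (0.967), Dapk2 (0.962) and Plekha6 (0.961). Ccl11 was closest to Angptl7 (0.983), Sult5a1 (0.982) and Fmo1 (0.980), Cxcl13 to Apod (0.965), Col6a5 (0.964) and Lbp (0.951), and Cxcl14 to Nid1 (0.960), Ms4a4d (0.953) and Dcn (0.95). Ccl19 lay nearest Serping1 (0.881), Cd302 (0.853) and Matn2 (0.836), Ccl7 nearest Cxcl1 (0.864) and Cops7a (0.857), and Cxcl1 nearest Dact1 (0.873), Ccl7 (0.864) and Plscr4 (0.863). Cxcl5 had no close neighbour, the nearest being Fut11 (0.759) and Ggcx (0.753). The groups share libraries, types and depth, and r is a description.

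The SS2 plates held 2065 wells after filtering, with a median of 445490 reads, and gave replicates. A portion was all wells of 1 labelled mouse on 1 plate, with 6 uninjured, 5 BDL and 4 CCl4 (6 weeks) portions for both FB-like and VSMC-like wells. A cluster of 110 wells led by Wif1 (75 uninjured, 2 BDL and 33 CCl4) was left unnamed and out of the FB-like wells. All 110 held at least 3 FB markers. Plates 1 and 2 carry the same labels and may hold the same mice, so p-values there may cover technical spread. Values are RPM (reads-per-million), scaled to the portion's summed reads and not corrected for transcript length, and are compared only within a gene. HSC-like wells came from 2 uninjured portions of plate 6, so they had no comparison. There Cxcl12 was 9551 and 10240 RPM with a read in all 312 wells, Cxcl10 was 375.7 and 276.5 RPM, Ccl2 300.3 and 129.2 RPM, and Cxcl13 had 0 reads in 312 wells.

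Cxcl5 was the member called in FB-like wells after CCl4. Uninjured portions ran from 0 to 11.98 RPM with a median of 1.37 RPM, the 5 BDL portions held 45.4 and 0 RPM (plate 1), 19.4 and 0 RPM (plate 2) and 142.9 RPM (plate 4), and the 4 CCl4 portions held 627.9 and 967.0 RPM (plate 3) and 669.2 and 151.0 RPM (plate 5). All 4 CCl4 portions lay above every uninjured and every BDL portion. The means were 4.09 ± 5.34 (SD, n = 6), 41.5 ± 59.7 (n = 5) and 604 ± 338 RPM (n = 4), and 5.62%, 10.2% and 49.5% of wells had a read. The log2 fold of CCl4 over uninjured was 7.17 ± 1.52 (SE; edgeR quasi-likelihood, adjusted p = 0.0309), and of BDL over uninjured 3.37 (edgeR adjusted p = 0.298). The CCl4 call was lost with the plate as a term (log2 fold 5.71, edgeR adjusted p = 0.666) and in 7 of the fits leaving out 1 portion, with adjusted p from 0.0166 to 0.0857 over all of them. These were the fits without the uninjured portion of plate 1, 2, 5 or 6, without either CCl4 mouse of plate 3, or without CCl4 mouse 1 of plate 5. CCl4 portions were above the uninjured portion of their own plate in 4 of 4. These 4 shared the uninjured portions of plates 3 and 5, so they are not independent. The share of all genes with 4 of 4 is not given here.

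Cxcl13 was also highest in the CCl4 portions but did not pass. It was 0 RPM in 4 of 6 uninjured portions with a highest value of 26.2 RPM, 7.52, 0, 0.0428, 0 and 304.8 RPM in BDL, and 360.6, 341.5, 358.0 and 314.7 RPM in CCl4. The CCl4 portions lay above all others, with a log2 fold over uninjured of 6.19 ± 2.06 (edgeR adjusted p = 0.241). With the plate as a term it was 12.27 (edgeR adjusted p = 0.0298). The alike CCl4 values rested on few wells, since a read was found in 16, 4, 25 and 13 wells and the highest well held 27.5%, 93.7%, 36.03% and 81.7% of the reads. The share of all genes whose CCl4 portions lay above all others, as for Cxcl5 and Cxcl13, is not given here.

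Among the monocyte ligands, Ccl2 was 2.54 to 42.1 RPM (median 24.5) in uninjured FB-like portions, 6.99, 12.8, 0.257, 0 and 115.1 RPM in BDL and 158.4, 148.6, 591.7 and 39.6 RPM in CCl4. CCl4 portions were above their own plate's uninjured portion in 4 of 4, again sharing those of plates 3 and 5. The groups overlapped at 39.6 and 42.1 RPM, and the log2 fold of 3.25 ± 1.18 did not pass (edgeR adjusted p = 0.320). Ccl7 was 7.15 to 147.5 RPM (median 50.8), 37.7, 77.9, 19.7, 24.8 and 694.8 RPM, and 251.5, 83.7, 397.3 and 85.3 RPM in the same order. Its groups overlapped too (CCl4 log2 fold 1.64 ± 0.92, edgeR adjusted p = 0.711).

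Cxcl12 was 1501 to 6039 RPM (median 3530) in uninjured FB-like portions, 1510, 3861, 1628, 2273 and 2080 RPM in BDL and 5736, 6676, 3545 and 4441 RPM in CCl4. The ranges overlapped, with log2 folds of 0.49 ± 0.35 for CCl4 (edgeR adjusted p = 0.863) and -0.67 for BDL (edgeR adjusted p = 0.507). Cxcl14 leaned the other way, with 6.10 to 63.3 RPM (median 28.4) uninjured, 43.9, 132.9, 134.8, 29.3 and 188.0 RPM in BDL and 54.1, 5.05, 2.88 and 18.9 RPM in CCl4. BDL portions were above their plate's uninjured portion in 5 of 5, although the log2 fold of 1.86 ± 0.76 did not pass (edgeR adjusted p = 0.366). These 5 shared the uninjured portions of plates 1, 2 and 4, so they are not independent. The share of all genes with 5 of 5 is not given here. Cxcl1 had means of 615 ± 272, 532 ± 445 and 1022 ± 716 RPM (SD; uninjured, BDL, CCl4), Cxcl10 of 9.35, 2.52 and 34.7 RPM, Ccl11 of 58.0, 58.4 and 41.2 RPM, and Ccl19 of 28.5, 8.52 and 9.48 RPM, with overlapping portions throughout.

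**Figure D4:**
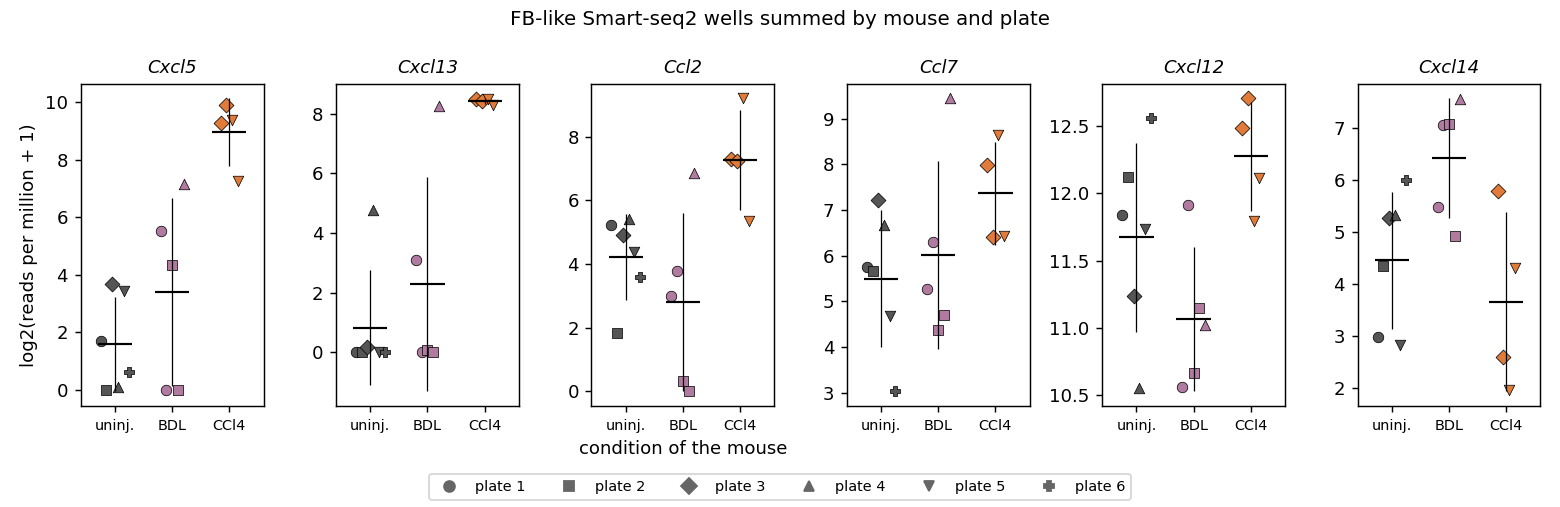
Level of 6 chemokines in FB-like SS2 portions, as log2(RPM + 1), each point 1 portion marked by plate, with mean ± SD per condition. The 4 CCl4 portions of Cxcl5 (151.0 to 967.0 RPM) and of Cxcl13 (314.7 to 360.6 RPM) lie above every uninjured and BDL portion, whereas Ccl2 and Cxcl12 overlap.

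Counted with edgeR over the 10 genes in FB-like wells, 1 rose with CCl4 (0.763% of 13363 genes tested rose) and 0 fell (0.0599%). There 3 had an unadjusted p under 0.05 (8.81% of all genes). With BDL 0 rose (0.561%) and 0 fell (0.112%), with 2 at an unadjusted p under 0.05 (10.5% of all genes) and 0 called by DESeq2 or limma. For BDL against CCl4, 0 were higher (0.0299%) and 0 lower (0.0823%), with 5 at an unadjusted p under 0.05 (6.17% of all genes), 0 called by DESeq2 and 5 as lower by limma on log2(RPM + 1), which called 354 of all genes lower. For CCl4 against uninjured, DESeq2 called Cxcl5 and limma called Ccl2, Ccl7, Cxcl5 and Cxcl13 as higher, where it called 1080 of all genes higher against 102 by edgeR. Of 9 tested ligands outside the 10, Cxcl2, another CXCR2 ligand, rose with BDL (log2 fold 8.59 ± 1.70, edgeR adjusted p = 0.0291) and with CCl4 (9.83 ± 1.78, edgeR adjusted p = 0.0106). Its uninjured portions reached 0.0416 RPM at most, against 0 to 20.1 RPM in BDL and 0.955 to 37.8 RPM in CCl4, so these folds depend on the prior count. Of 16 NF-kB genes 1 rose with CCl4 (Sod2, 1.93, edgeR adjusted p = 0.00622), and 0 of 13 interferon genes changed. Of 5 receptors tested, 0 changed with either injury.

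Most CCl4 reads of the inflammatory members came from 1 cluster of FB-like wells, led by the acute phase genes Saa3, Hp and Lcn2, with Cxcl5 itself among its leading genes. It held 152 wells, of which 142 were CCl4, 10 BDL and 0 uninjured, although the 10 chemokines were left out when clusters were built. In CCl4 wells the cluster held 99.2% of Cxcl5 reads (932.1 RPM against 12.7 RPM in the other 78 wells). It held 99.5% of Ccl2 reads (450.8 against 4.04 RPM) and 99.8% of Cxcl13 reads (556.7 against 2.00 RPM). The other members differed among themselves. Cxcl1 (1668 against 294.1 RPM), Ccl7 (356.9 against 62.8 RPM) and Cxcl10 (54.0 against 10.3 RPM) were higher in the cluster, Cxcl12 was nearer (5420 against 3844 RPM), and Ccl11 (3.15 against 93.9 RPM), Ccl19 (0.168 against 19.3 RPM) and Cxcl14 (3.65 against 54.4 RPM) were lower. A Cxcl5 read was found in 67.6% of the cluster's CCl4 wells and in 16.7% of the others, a Ccl19 read in 2.82% and 55.1%. This is a description, since the cluster was formed from the same wells.

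Without the wells of that cluster, an alternative added after seeing the data, the CCl4 log2 fold of Cxcl5 was 1.84 and that of Ccl2 was -2.32 (edgeR adjusted p = 1.0 for both). This leaves 78 of 220 CCl4 wells, and then 0 of 12776 genes were called in either direction. All 152 wells held at least 3 FB markers, but so did 80.0% of 25 wells of a cluster led by the mesothelial markers Msln and Upk3b. FB markers summed to 7502 RPM in the Saa3-led and 1454 RPM in the Msln-led cluster, and mesothelial markers to 310.0 and 13170 RPM. Markers of other cells moved with CCl4: mesothelial markers summed to 0 to 47.97 RPM in uninjured, 0 to 61.5 RPM in BDL and 99.8 to 251.1 RPM in CCl4 FB-like portions, and leucocyte markers to 0 to 60.2, 0 to 32.2 and 279 to 661 RPM. In the Saa3-led cluster Cd74, an antigen presentation gene, gave 675 of 676.4 RPM of the leucocyte sum, and Ptprc, which encodes CD45, stood at 0.127 RPM. At least 3 mesothelial markers were found in 21 wells of the Saa3-led cluster. Without wells holding 3 markers of another cell type, Cxcl5 was still called (edgeR adjusted p = 0.0383). In the 10X library of CCl4 6 weeks protocol 1, 1 cell fell in a Saa3-led cluster, and FB-like Cxcl5 was 11.2 CPM.

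**Figure D5:**
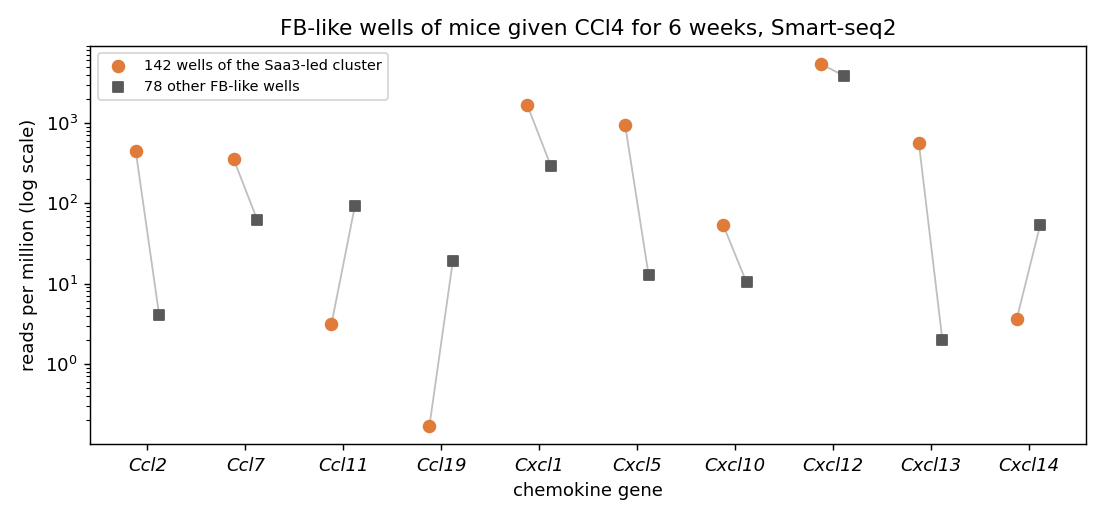
Level of each chemokine (RPM, log axis) in CCl4 FB-like SS2 wells, as summed reads of the 142 wells of the Saa3-led cluster and of the other 78 wells. Cxcl5, Ccl2 and Cxcl13 lie far higher in the Saa3-led wells and Ccl11, Ccl19 and Cxcl14 far lower, while Cxcl12 is 5420 against 3844 RPM.

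VSMC-like wells held little of most chemokines. Cxcl12 was the steadiest, with 90.7 to 246.0 RPM (median 172.3) uninjured, 65.5 to 199.0 RPM (median 83.9) in BDL and 99.6 to 179.8 RPM (median 149.2) in CCl4, and a read in 70.5%, 54.1% and 73.1% of wells. Cxcl1 was 132.9 ± 174.1, 25.0 ± 16.2 and 153.0 ± 172.9 RPM (SD). Of the 7 members tested (Cxcl5, Cxcl13 and Cxcl14 failed the filter on low counts), edgeR called 0 as risen (0.168% of 13082 genes) or fallen (0.115%) with BDL, with 3 at an unadjusted p under 0.05 (8.94% of all genes), 1 called as lower by DESeq2 (110 of all genes) and 0 by limma. That 1 was Ccl11, at 0 RPM in 4 of 5 BDL portions (edgeR log2 fold -8.67 ± 2.58, adjusted p = 0.196). Uninjured portions were also mostly near 0, with 2 of 6 at 0 RPM, a median of 0.0721 RPM and a highest value of 30.8 RPM. A Ccl11 read was found in 9 of 356 uninjured and 3 of 351 BDL wells. With CCl4, edgeR called 0 in either direction, where 0.0% of all genes were called, with 1 at an unadjusted p under 0.05 (4.7%) and 0 by DESeq2 or limma. For BDL against CCl4 it called 0 as higher (0.00764%) or lower (0.0%), with 2 at an unadjusted p under 0.05 (5.56%) and 0 by the other tools.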

How the data were processed

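The authors aligned 10X reads with Cell Ranger 2.1.0 to mm10 and deposited the UMI count of each gene in each cell. For SS2, the deposited values are read counts per gene and well, made by the authors after STAR alignment. Cells with at least 300 genes and at most 30% mitochondrial UMIs were kept, reduced to 10 components of 2000 variable genes without the 10 chemokines, clustered (30 neighbours, resolution 0.8; Python 3.11.15, scikit-learn 1.9.0) and named from markers. The other ligands, the receptors and the NF-kB, interferon, immediate early and heat shock lists were also left out of the variable genes. SS2 wells were clustered in the same way but with 20 neighbours. Called doublets stayed in, with an alternative without them. SS2 reads were summed per portion and type (at least 5 wells) and tested by edgeR 4.0.16 (R 4.3.3) quasi-likelihood with Benjamini-Hochberg adjustment over all genes passing the low-count filter and a threshold of 0.05. DESeq2 1.42.0 and limma 3.58.1 (pseudocount 1) were alternatives. 10X conditions, with 1 pooled library each, were compared by CPM and counting intervals. The fits were checked on simulated counts. The members, lists and rules were chosen with earlier results of these data known. All 10 members were named, other ligands at 50 CPM or more, receptors at 20 CPM or more, and the 3 genes most alike to each member (for Ccl7 and Cxcl5 the third is not reported here); pathway genes were named from those called in 10X HSC-like and FB-like cells.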

Additional observations from a re-analysis of the deposited data

Results flagged for a closer look

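Of 28 groups of 4 to 6 FB-like SS2 portions, those with at least 3 portions above 0, examined for a sample far from the rest, 4 were picked out, where chance picks about 1 in 20. Ccl19 in uninjured FB-like wells was 104.5 RPM on plate 2, with the next portion at 19.0 RPM (n = 6). The other 3 were the same portion, BDL mouse 1 of plate 4, in FB-like wells (n = 5). There Ccl2 was 115.1 RPM (next 12.8 RPM), Ccl7 was 694.8 RPM (next 77.9 RPM) and Cxcl13 was 304.8 RPM (next 7.52 RPM). That portion also held the highest BDL value of Cxcl5.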

How the results depend on the processing

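In the 10X data the number of members standing apart at 6 weeks in HSC-like cells was 3, and 1 after thinning to 2000 UMIs. At 72 h against 6 weeks it was 3, and 1 with all deposited cells, with types by markers of each cell, with the mean over cells, or thinned. In FB-like cells it was 3, and 1 with the mean over cells or thinned. In VSMC-like cells it was 1, but 0 without doublets, with the mean over cells or thinned, and 3 with whole libraries, which pool them with FB-like cells. The Cxcl13 log2 fold there turned to -0.0768 with all deposited cells, -0.21 without doublets, -0.0747 with types by cell and -0.85 with whole libraries. In SS2 FB-like wells, CCl4 against uninjured gave 1 called member by edgeR, 4 by limma (all genes: 102 higher by edgeR, 1080 by limma) and 0 without the Saa3-led wells (0 of 12776 genes), where the log2 fold of Ccl2 was -2.32. Leaving out 1 portion gave 0 to 2, and counting the Wif1-led wells as FB-like gave 1 (85 of 13678 genes higher). BDL against CCl4 gave 0, and 5 by limma (354 of all genes lower), and the Cxcl5 log2 fold was 0.0709 without the Saa3-led wells. In VSMC-like wells BDL gave 0, and 1 (Ccl11) by DESeq2 (110 of all genes lower). The causes were not tested. Alternatives with merged plates 1 and 2, with the Wif1-led wells, or without some wells, were added after seeing the data.

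The plate number was also used as a replicate block. It called Cxcl13 in place of Cxcl5, so the count stayed at 1. Across genes, portions of 1 plate did not deviate together on average. The mean r was 0.032 for FB-like wells and 0.003 for VSMC-like wells, so the plates were not taken as pairs. Between conditions on 1 plate, the FB-like values ran from -0.0406 to 0.154. Such a mean does not show whether single members such as Cxcl5 or Cxcl13 varied by plate. Each 10X condition is 1 pooled library, so spread between mice is unknown there, and low SS2 members rest on few wells.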

Other observations

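The 10X library of CCl4 6 weeks protocol 2 held 17 of the 18 cells of an FB-like cluster led by Saa3, Ctla2a, Hp and Lcn2, which was chosen after its values were seen. The name is uncertain, with mean relative marker levels of 0.40 for FB and 0.276 for HSC. The 2 main FB-like clusters had 0.817 and 0.927 for FB. With clusters at resolution 0.4 only 8 cells of this library were FB-like, against 26 at 0.8, so some of the 17 changed type. The cluster was deep, with a median of 19500 UMIs against 9893 in the library. In these 17 cells, Cxcl5 was 180.6 CPM (interval 138.5 to 231.5), from 62 UMIs in 11 cells, against 5.47 CPM in the HSC-like cells of the same library. Cxcl1 was 530.1 CPM, Ccl2 314.6 CPM with a UMI in 13 cells, Ccl7 233.0 CPM and Cxcl12 3425 CPM. Cxcl10 was 69.9 CPM, Cxcl14 20.4 CPM and Ccl19 11.7 CPM, and these, Ccl2 and Cxcl12 stood below the HSC-like cells. In contrast Cxcl1 and Ccl7 stood above them, and Ccl11 had 0 UMIs, which allows up to 10.7 CPM. Cxcl13 had 1 UMI.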
